A study of Homo sapiens with 6 samples.

Results

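The genes described here are 40 genes of the kinetochore, the centromere and the spindle checkpoint, picked by symbol from the 26364 genes of the deposited table. All 40 were in the table and all 40 passed the filter on low values, a mean of at least 10 normalized counts, which 15354 genes passed. They were divided by place into 17 inner centromere genes, 14 outer kinetochore genes and 9 spindle checkpoint genes. The cells were Calu3, an established human lung adenocarcinoma line, and were profiled by RNA-seq with single reads. Both groups were transfected with RNAiMax and 20 nmol of siRNA: 3 libraries received a negative control siRNA and 3 received siRNA against BRD8, a bromodomain subunit of the TIP60/NuA4 acetyltransferase complex. The labels name 1 reagent against BRD8, so effects of that reagent apart from loss of BRD8 cannot be told apart from it, and the shared extraction text speaks of confluent HBE cells although every label names Calu3. Nothing in the labels says that the libraries of a group came from separate cultures, so the p-values measure only the spread between these libraries.

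The centromere is the chromosomal site marked by nucleosomes that hold CENP-A, a variant of histone H3. On it sits the constitutive centromere associated network, the CCAN, and on the CCAN the outer kinetochore, whose NDC80 complex grips spindle microtubules. Kinetochores without proper attachment recruit the checkpoint proteins, which restrain CDC20 and so hold the cell in mitosis. Many of these genes are transcribed mainly in G2 and mitosis of dividing cells, while others are transcribed through the whole cycle.

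The libraries held 33640814 to 37896467 reads assigned to genes. BRD8 itself gave 2751, 2928 and 3067 in the control libraries and 1312, 1084 and 1156 in the BRD8 siRNA libraries (normalized counts), so every BRD8 siRNA library lay below every control library (log2 fold change -1.30 with SE 0.0904, adjusted p = 1.13e-04). Control library 2 stood apart from the other 5 libraries on the second principal component, which held 20.6% of the variance. Epithelial markers were abundant in all libraries: the 8 markers summed to between 350905 and 427509 normalized counts in the control libraries and between 474468 and 523522 in the BRD8 siRNA libraries. Of these 8 markers 5 rose (3 without control library 3 and 7 without control library 2). With all libraries kept, 10.1% of all genes tested rose. Among fits that left out 1 library, the first of these called the fewest of all genes higher and the second the most. The swing from 3 to 7 is therefore not read as particular to the markers. The part of the epithelial difference in the results for the 40 genes was not tested. None of 5 endothelial markers reached a mean of 10. Of 6 fibroblast markers 2 did and COL1A2 was at 0, and of 6 leukocyte markers 3 did. The fibroblast sums were 213 to 226 in the control libraries and 212 to 228 in the BRD8 siRNA libraries, most of them COL1A1, which was not called. LUM rose, with 30.3, 23.8 and 31.5 in the control libraries and 65.5, 43.6 and 55.1 in the BRD8 siRNA libraries (log2 fold change 0.91 with SE 0.218, adjusted p = 0.0211), though not when BRD8 library 1, BRD8 library 3 or control library 3 was left out (adjusted p from 0.0519 to 0.0751). Its part in the results for the 40 genes was not tested. The leukocyte sums, nearly all of them LYZ, which secretory epithelium also makes, were 16665 to 18147 and 16766 to 17281.

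Kinetochore, centromere and checkpoint genes were lower after BRD8 siRNA, and none was called higher. Of the 40 genes 28 fell and 12 passed in neither direction (limma, adjusted p under 0.05), where 8.93% of all genes tested fell and 10.1% rose. The median log2 fold change of the 40 was -0.49, beside -0.01 for all genes tested. Fold changes are on the scale of log2(normalized count + 1). In 32 of the 40 genes every BRD8 siRNA library lay below every control library, which held for 17.9% of all genes tested. The authors' deposited table, at an adjusted p under 0.05, has 29 of the 40 lower and none higher, beside 10.1% of its genes lower. Bulk RNA cannot tell fewer cells in G2 and mitosis from less RNA of these genes per cell.

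**Figure D1:**
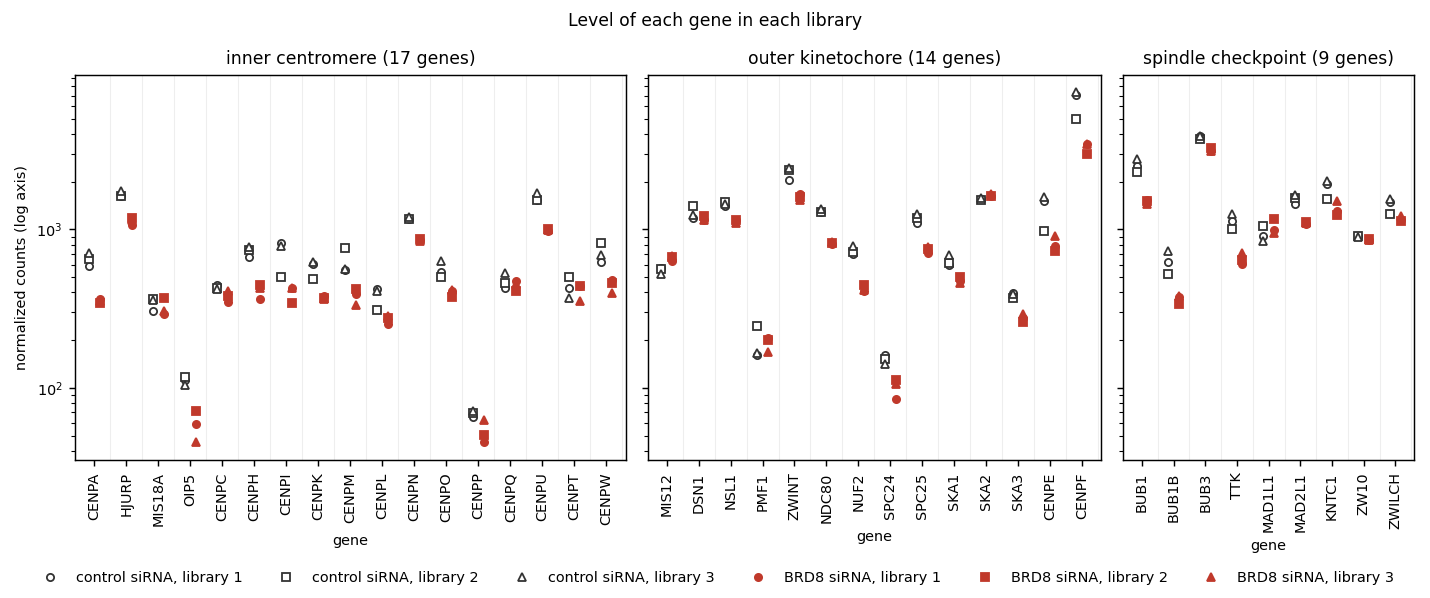
Level of each of the 40 genes (x axis) in normalized counts on a log axis, with 3 control libraries as open and 3 BRD8 siRNA libraries as filled symbols, and the shape giving the library number. For CENPA, NDC80, NUF2 and TTK the filled symbols lie well below the open ones, while for MIS18A, CENPQ, CENPT, DSN1 and PMF1 they overlap.

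The inner centromere genes fell in 12 of 17 cases, at a median of -0.57 on the log2 fold change scale and with values from -0.93 for OIP5 to -0.06 for CENPT. The histone variant gene CENPA, whose product marks the centromere, gave 587, 655 and 713 in the control libraries and 364, 344 and 352 in the BRD8 siRNA libraries. The BRD8 siRNA mean was 54.2% of the control mean, and the groups did not overlap (log2 fold change -0.88 with SE 0.0972, adjusted p = 8.01e-04). Its chaperone HJURP, which places CENP-A in chromatin, gave 1637, 1631 and 1758 in the control libraries and 1064, 1174 and 1155 in the BRD8 siRNA libraries (log2 fold change -0.57 with SE 0.0773, adjusted p = 0.00186). The spread within either group was small beside the difference. OIP5, also named MIS18B, primes centromeres for new CENP-A and gave 112, 117 and 105 in the control libraries and 59.3, 71.1 and 45.4 in the BRD8 siRNA libraries (log2 fold change -0.93 with SE 0.182, adjusted p = 0.00889). Of the exon length of OIP5, 38.0% overlaps OIP5-AS1 on the other strand, and reads of the 2 strands were not kept apart by this library kit. MIS18A, the partner of OIP5 in the same priming complex, gave 305, 366 and 359.8 in the control libraries and 292, 369.8 and 307 in the BRD8 siRNA libraries. Its groups overlapped, and its log2 fold change of -0.09 had a 95% confidence interval of -0.37 to 0.19 (adjusted p = 0.649).

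All 4 genes of the CENP-H, CENP-I, CENP-K and CENP-M group, the core of the CCAN, fell. CENPH gave 670.1, 738 and 771 in the control libraries and 363, 446 and 428 in the BRD8 siRNA libraries (log2 fold change -0.82 with SE 0.106, adjusted p = 0.00155). CENPI gave 819, 503 and 783 in the control libraries and 426, 344 and 429 in the BRD8 siRNA libraries, with control library 2 far below the other 2 controls but still above every BRD8 siRNA library (log2 fold change -0.78 with SE 0.183, adjusted p = 0.0190). Leaving out control library 1 gave an adjusted p of 0.0608, leaving out control library 3 gave 0.0824 and leaving out BRD8 library 2 gave 0.0674. CENPK fell from 572 ± 76.1 to 371 ± 9.68 normalized counts (mean ± SD, n = 3 each; log2 fold change -0.61). CENPM fell from 627 ± 114 to 381 ± 45.1 (log2 fold change -0.71). In contrast to CENPI, CENPM was highest in control library 2, at 759 beside 558 and 565 in the other 2. The pair that reads the CENP-A nucleosome, CENPN and CENPL, both fell. CENPN fell from 1175 ± 23.7 to 854 ± 12.4 (log2 fold change -0.46, adjusted p = 0.00335). CENPL gave 421, 309.9 and 409.6 in the control libraries and 252, 276 and 286 in the BRD8 siRNA libraries (log2 fold change -0.47 with SE 0.133, adjusted p = 0.0383), and its groups did not overlap. The call for CENPL was lost on leaving out any library except control library 2, at adjusted p from 0.0825 to 0.152, and also with no filter on low values (0.0501).

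The other 2 CCAN groups were split. In the CENP-O, P, Q, U group CENPU, which recruits the kinase PLK1, gave 1534, 1537 and 1704 in the control libraries and 975, 1012 and 994 in the BRD8 siRNA libraries (log2 fold change -0.68 with SE 0.0765, adjusted p = 8.69e-04). The 3 BRD8 siRNA libraries lie close together and far below the controls. CENPO fell from 556 ± 65.1 to 399 ± 22.5 normalized counts (a log2 fold change of -0.47), but its adjusted p was 0.0789 without control library 3 and 0.0692 without BRD8 library 2. Of its exon length 27.0% lies opposite ADCY3. CENPQ, a structural partner of CENPU, gave 427, 457 and 527 in the control libraries and 474, 408 and 450.5 in the BRD8 siRNA libraries, and the groups overlapped (log2 fold change -0.08, 95% confidence interval -0.33 to 0.17, adjusted p = 0.655). CENPP, a further member of this group, gave 65.4, 69.1 and 71.1 in the control libraries and 45.7, 50.3 and 62.8 in the BRD8 siRNA libraries (log2 fold change -0.38, 95% confidence interval -0.76 to 0.01, adjusted p = 0.159). The groups of CENPP did not overlap, and 38.0% of its exon length lies opposite IPPK.

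The histone-fold pair CENP-T and CENP-W, an arm of the CCAN that binds the NDC80 complex directly, was split as well. CENPW fell from 712 ± 102 to 447 ± 42.5 normalized counts (a log2 fold change -0.67 with SE 0.122, adjusted p = 0.00700). CENPT gave 428, 501 and 368 in the control libraries and 441, 441 and 355 in the BRD8 siRNA libraries, with overlapping groups (log2 fold change -0.06, 95% confidence interval -0.38 to 0.25, adjusted p = 0.780). CENPC, which links the CENP-A nucleosome to the MIS12 complex, gave 446, 425 and 421 in the control libraries and 348, 382 and 409.9 in the BRD8 siRNA libraries. All 3 BRD8 siRNA values of CENPC were below the controls, by a margin that did not pass (log2 fold change -0.18, 95% confidence interval -0.40 to 0.03, adjusted p = 0.219).

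**Figure D2:**
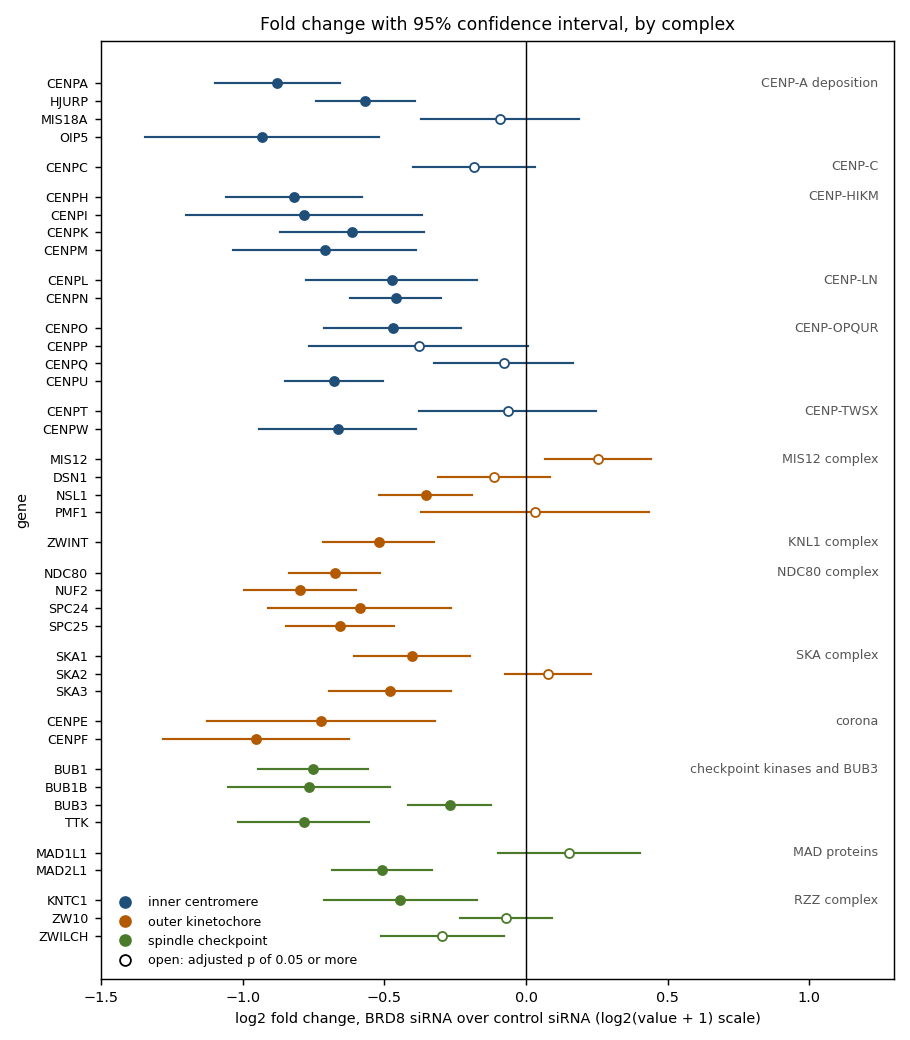
Log2 fold change of each gene (BRD8 siRNA over control siRNA, points) with its 95% confidence interval (lines), grouped by complex. Filled points have an adjusted p under 0.05. All genes of the NDC80 complex and of the CENP-H, I, K, M group are filled and lie between -0.82 and -0.59, while 3 of 4 in the MIS12 complex are open and lie between -0.11 and 0.25.

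The outer kinetochore genes fell in 10 of 14 cases, with a median log2 fold change of -0.50. All 4 subunits of the NDC80 complex fell. NDC80, its microtubule-binding subunit, gave 1296, 1294 and 1349.6 in the control libraries and 809, 825 and 831 in the BRD8 siRNA libraries (log2 fold change -0.68 with SE 0.0713, adjusted p = 6.43e-04). NUF2, the partner of NDC80 on the microtubule side of the complex, gave 704, 717 and 791 in the control libraries and 412, 445 and 414 in the BRD8 siRNA libraries (log2 fold change -0.80 with SE 0.0875, adjusted p = 7.74e-04). The libraries of each group lie close together for both genes, with a wide gap between the groups. SPC25, of the pair that faces the centromere, gave 1098, 1180.1 and 1252 in the control libraries and 708, 752 and 778 in the BRD8 siRNA libraries (log2 fold change -0.66 with SE 0.0839, adjusted p = 0.00146). Its partner SPC24, at 53.4 normalized counts per kilobase of exon in the controls beside 639 for SPC25, fell from 152 ± 9.43 to 101.2 ± 14.3 normalized counts (a log2 fold change -0.59 with SE 0.142, adjusted p = 0.0220). SPC24 was not called when control library 1 was left out (adjusted p of 0.0745), nor in the absence of control library 3 (0.0617), BRD8 library 1 (0.0596) or BRD8 library 3 (0.0598).

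The MIS12 complex, which joins the NDC80 complex to the inner centromere, was mostly not called. Of its 4 genes only NSL1 was called lower, from 1448 ± 46.0 to 1132 ± 30.3 normalized counts (a log2 fold change -0.35 with SE 0.0718, adjusted p = 0.0104), and its adjusted p was 0.0586 without control library 3 and 0.0564 without BRD8 library 3. MIS12 gave 572, 560.3 and 525 in the control libraries and 631, 667 and 679.6 in the BRD8 siRNA libraries. Each BRD8 siRNA library of MIS12 lay above each control library, with a log2 fold change of 0.25 (95% confidence interval 0.07 to 0.44, adjusted p = 0.0621). MIS12 passed as higher without control library 2 (adjusted p = 0.0396), with quantile normalization (0.0494) and with a trend on length and GC removed (0.0204). DSN1 gave 1175, 1397 and 1234 in the control libraries and 1147, 1218 and 1148 in the BRD8 siRNA libraries (log2 fold change -0.11, adjusted p = 0.411). PMF1, also a MIS12 complex subunit, gave 160.2, 247 and 166 in the control libraries and 206, 201.0 and 169 in the BRD8 siRNA libraries (log2 fold change 0.03, adjusted p = 0.922). The groups of both overlapped, with 95% confidence intervals of -0.31 to 0.08 for DSN1 and -0.37 to 0.43 for PMF1. Of the exon length of PMF1, 23.3% is shared with the readthrough gene PMF1-BGLAP on the same strand. Smaller shares were found for CENPN (12.8% opposite CMC2), CENPU (11.7% opposite PRIMPOL), CENPT (10.8% opposite TSNAXIP1) and BUB1B (10.2% with BUB1B-PAK6 on the same strand).

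The SKA complex, which tracks microtubule ends, was also divided. SKA1 gave 597, 612 and 690.0 in the control libraries and 474, 499 and 461 in the BRD8 siRNA libraries (log2 fold change -0.40 with SE 0.0909, adjusted p = 0.0164). SKA3 fell from 386 ± 15.2 to 276 ± 17.5 normalized counts (a log2 fold change of -0.48, adjusted p = 0.00938). SKA2 gave 1561, 1544 and 1585 in the control libraries and 1636, 1636 and 1674 in the BRD8 siRNA libraries. Its BRD8 siRNA values were all slightly above its control values, with a log2 fold change of 0.08 (95% confidence interval -0.08 to 0.23, adjusted p = 0.473). Leaving out control library 3 gave SKA1 an adjusted p of 0.0878, leaving out BRD8 library 1 gave 0.0506 and leaving out BRD8 library 3 gave 0.0722.

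ZWINT, which binds KNL1 and helps to bring the RZZ complex to the kinetochore, fell from 2296 ± 209 to 1597 ± 67.1 normalized counts (a log2 fold change -0.52 with SE 0.0868, adjusted p = 0.00462). The fibrous corona, the outermost layer, was represented by CENPE, a plus-end kinesin, and CENPF, a very large coiled-coil protein. CENPF gave 7093, 4953 and 7365 in the control libraries and 3446, 2993 and 3457 in the BRD8 siRNA libraries (log2 fold change -0.95 with SE 0.145, adjusted p = 0.00313). It had the largest fall of the 40 genes, to 51.0% of the control mean. CENPE gave 1509, 977 and 1601 in the control libraries and 790.1, 732 and 904 in the BRD8 siRNA libraries (log2 fold change -0.72 with SE 0.177, adjusted p = 0.0226). Control library 2 was the lowest control for both genes, yet above every BRD8 siRNA library. CENPE was not called when control library 1 was left out (adjusted p of 0.0714), nor in the absence of control library 3 (0.0912), BRD8 library 1 (0.0711) or BRD8 library 2 (0.0768). Without control library 3, 6 of the 14 outer kinetochore genes fell, where 3.44% of all genes tested fell.

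The checkpoint genes fell in 6 of 9 cases, with a median log2 fold change of -0.44. BUB1, a kinase that marks the inner centromere and recruits other checkpoint proteins, gave 2514, 2314 and 2797 in the control libraries and 1538, 1520.1 and 1458 in the BRD8 siRNA libraries (log2 fold change -0.75 with SE 0.0856, adjusted p = 8.97e-04). BUB1B, which encodes the CDC20 inhibitor BUBR1, gave 622, 525 and 729.7 in the control libraries and 374, 339 and 381 in the BRD8 siRNA libraries (log2 fold change -0.77 with SE 0.127, adjusted p = 0.00445). TTK, the kinase MPS1 that starts checkpoint signalling, gave 1124, 1011 and 1243 in the control libraries and 608, 639 and 709 in the BRD8 siRNA libraries (log2 fold change -0.78 with SE 0.102, adjusted p = 0.00156). In these 3 genes the BRD8 siRNA libraries held 57.9% to 59.2% of the control mean, and the groups did not overlap. BUB3, the adaptor of both BUB proteins, gave 3865, 3746 and 3869 in the control libraries and 3139, 3254 and 3134 in the BRD8 siRNA libraries (log2 fold change -0.27 with SE 0.0646, adjusted p = 0.0211). This was the smallest fall among the called members, and it lost its call on leaving out any library except control library 2, at adjusted p from 0.0651 to 0.106. With a trend on length and GC removed its adjusted p was 0.179.

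MAD2L1, whose product MAD2 closes around CDC20, gave 1451, 1577 and 1659.6 in the control libraries and 1084, 1114 and 1094 in the BRD8 siRNA libraries (log2 fold change -0.51 with SE 0.0780, adjusted p = 0.00326). MAD1L1, the platform on which MAD2 is converted, gave 904, 1052 and 842 in the control libraries and 992, 1156 and 956 in the BRD8 siRNA libraries. Its groups overlapped (log2 fold change 0.15, 95% confidence interval -0.10 to 0.40, adjusted p = 0.384). The ROD-Zwilch-ZW10 complex, RZZ, brings MAD1 and dynein to kinetochores. Its gene KNTC1, which encodes ROD, gave 1933, 1555 and 2028 in the control libraries and 1298, 1236 and 1508 in the BRD8 siRNA libraries (log2 fold change -0.44 with SE 0.119, adjusted p = 0.0320). KNTC1 was not called when a single library was left out in 4 cases: control library 1 (adjusted p of 0.0932), control library 3 (0.134), BRD8 library 1 (0.0970) and BRD8 library 2 (0.113). ZWILCH gave 1493, 1252 and 1549.8 in the control libraries and 1145, 1126 and 1217 in the BRD8 siRNA libraries (log2 fold change -0.30, 95% confidence interval -0.51 to -0.08, adjusted p = 0.0624). It passed as lower without control library 2 (adjusted p = 0.00266) and in the authors' deposited table (0.0376). ZW10, which also acts in membrane traffic between the endoplasmic reticulum and the Golgi, gave 904, 916 and 899 in the control libraries and 863, 872 and 852 in the BRD8 siRNA libraries. The spread was so small that its groups did not overlap, at a log2 fold change of -0.07 (95% confidence interval -0.23 to 0.09, adjusted p = 0.531).

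Per kilobase of annotated exon, the control means of the 40 genes ran from 7.0 normalized counts for CENPP and 50.02 for CENPC to 896 for CENPW and 965 for ZWINT. Genes near both ends of this order fell, such as SPC24 at 53.4 and ZWINT, and so did genes in its middle, such as TTK at 246 per kilobase. The uncalled genes were spread over the order too, from CENPP to SKA2 at 497. A rank correlation was taken with another measure of level, the sum of both group means, not divided by exon length. Over the 40 genes, which share the libraries, the fold change followed that level at a Spearman rho of -0.05.

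Averaged over the 40 genes, log2 levels against the control mean were -0.02, -0.03 and 0.05 in the control libraries and -0.48, -0.45 and -0.46 in the BRD8 siRNA libraries. No BRD8 siRNA library stood out from the other 2 by this average. By class the 3 BRD8 siRNA libraries were at -0.53, -0.49 and -0.54 for the inner centromere, -0.44, -0.41 and -0.41 for the outer kinetochore and -0.44, -0.42 and -0.39 for the checkpoint. Of the 28 calls, 19 were kept whichever of the 6 libraries was left out.

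The ratio of 1 gene to another was taken in each library, per kilobase of exon, for 17 pairs chosen after the levels had been seen. Each pair came from 1 complex or group, and CENPA and MIS18A share the deposition of CENP-A, not a complex. The ratio of SKA1 to SKA2 was 0.408, 0.423 and 0.464 in the control libraries and 0.309, 0.325 and 0.294 in the BRD8 siRNA libraries. That of MAD2L1 to MAD1L1 was 2.02, 1.89 and 2.48 in the control libraries and 1.38, 1.21 and 1.44 in the BRD8 siRNA libraries. That of CENPW to CENPT was 10.2, 11.5 and 13.0 in the control libraries and 7.59, 7.30 and 7.84 in the BRD8 siRNA libraries. All 3 ratios were lower in every BRD8 siRNA library than in any control library. The ratio of CENPA to MIS18A went from 1.65 to 0.955 and that of NSL1 to MIS12 from 2.02 to 1.33 (geometric means of 3 libraries). Among pairs in which both genes fell, the ratio of CENPN to CENPL was 4.30 and 4.34 in the 2 groups, and that of SPC25 to SPC24 was 12.0 and 11.4, with overlapping libraries. That of NUF2 to NDC80 was 0.600 and 0.551, without overlap. Of the 17 ratios 11 did not overlap between the groups, at an exact two-sided permutation p of 0.1 each. That is the smallest that 3 against 3 libraries can give, or 0.155 adjusted over the 17. Many pairs set a gene that fell over a partner that was not called, so their lower ratios were built into the choice. The p-values are therefore no test of a change in ratio, and no share over other gene pairs was taken.

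Short sequence motifs in the promoters were then read as a feature that had no part in choosing the genes. A hexamer, TTTGAA, is the core of the cell cycle genes homology region (CHR), a promoter element bound by the DREAM complex in resting cells and by MYBL2 and FOXM1 complexes in dividing cells. The CCAAT box is bound by NF-Y and is common in G2 and mitosis promoters. RefSeq promoter windows (GRCh38.p14, 250 bases before to 50 after the start) were at hand for 33 of the 40 genes. For 10 of them the sequence is shown from 100 bases before to 30 after the start, written 5′ to 3′ along the gene, with TTTGAA or its reverse complement TTCAAA and CCAAT or its reverse complement ATTGG in capitals. The first 7 belong to genes that fell and hold the hexamer near the start. The last 3 belong to partners that were not called.

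CENPA, chr2:26785956-26786085, plus strand: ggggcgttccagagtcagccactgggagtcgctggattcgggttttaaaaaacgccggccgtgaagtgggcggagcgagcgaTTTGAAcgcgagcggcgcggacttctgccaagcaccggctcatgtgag
NDC80, chr18:2571457-2571586, plus strand: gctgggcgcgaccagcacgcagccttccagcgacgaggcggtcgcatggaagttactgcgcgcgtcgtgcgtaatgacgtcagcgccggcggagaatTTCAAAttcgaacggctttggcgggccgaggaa
NUF2, chr1:163321854-163321983, plus strand: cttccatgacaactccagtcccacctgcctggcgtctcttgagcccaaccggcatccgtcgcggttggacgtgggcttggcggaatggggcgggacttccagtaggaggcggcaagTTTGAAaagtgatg
SPC25, chr2:168890401-168890530, minus strand: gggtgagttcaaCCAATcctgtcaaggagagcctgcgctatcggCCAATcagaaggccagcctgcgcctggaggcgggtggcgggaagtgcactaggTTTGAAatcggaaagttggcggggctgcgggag
SKA3, chr13:21176523-21176652, minus strand: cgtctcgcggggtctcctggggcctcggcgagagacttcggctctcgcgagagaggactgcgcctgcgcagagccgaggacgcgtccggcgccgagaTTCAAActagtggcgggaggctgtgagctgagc
BUB1B, chr15:40160969-40161098, plus strand: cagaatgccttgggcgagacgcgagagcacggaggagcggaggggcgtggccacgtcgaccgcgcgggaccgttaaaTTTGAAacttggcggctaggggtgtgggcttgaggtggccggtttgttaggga
MAD2L1, chr4:120066819-120066948, minus strand: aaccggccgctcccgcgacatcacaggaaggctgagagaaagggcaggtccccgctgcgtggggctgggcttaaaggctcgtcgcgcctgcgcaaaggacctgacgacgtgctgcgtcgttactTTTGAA
CENPT, chr16:67847664-67847793, minus strand: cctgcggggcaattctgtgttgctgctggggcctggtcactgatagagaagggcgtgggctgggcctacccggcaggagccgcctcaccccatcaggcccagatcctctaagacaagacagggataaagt
SKA2, chr17:59155157-59155286, minus strand: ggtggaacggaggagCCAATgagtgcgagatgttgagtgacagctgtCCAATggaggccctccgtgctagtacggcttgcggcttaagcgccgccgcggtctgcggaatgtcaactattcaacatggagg
MAD1L1, chr7:2232916-2233045, minus strand: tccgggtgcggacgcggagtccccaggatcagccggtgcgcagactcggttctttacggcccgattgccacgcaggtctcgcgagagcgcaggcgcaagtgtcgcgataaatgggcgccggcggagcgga

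The hexamer, on either strand and anywhere in the window, was in 15 of the 33 member promoters, or 45.5%, in 13.8% of the 10999 tested genes that have such a window and in 18.2% of all 27305 genes with one. Within 50 bases of the start it was in 12 of 33, or 36.4%, against 4.36% of tested genes. That narrower window was chosen after the positions had been seen, so the split of calls by it is no test. The 12 genes are CENPA, CENPN, CENPO, NDC80, NUF2, SPC25, SKA1, SKA3, ZWINT, CENPF, BUB1B and MAD2L1, and all 12 fell. Of the other 21 members with a window 10 fell, among them BUB1, CENPE, CENPI and CENPU, which hold no TTTGAA or TTCAAA in these windows. The size of the fall did not go the same way: among the 22 that fell, the median log2 fold change was -0.59 with the hexamer near the start and -0.67 without it. None of the 11 uncalled members had the hexamer within 50 bases of the start, and 2 of them, CENPC and ZW10, had it farther upstream, at positions -90 and -224 from the start. Across all tested genes with a window, 22.1% of the 480 with the hexamer near the start fell, beside 9.06% of the 10519 without it. With the whole window read, the split was weaker: 13 of the 15 members with the hexamer fell, and 9 of the 18 without it. Of all tested genes, 14.0% of those with the hexamer anywhere in the window fell, beside 8.93% of those without it. These are descriptions of letters in a window and show no binding.

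The CCAAT box was found in members that fell and in members that were not called. CCAAT or ATTGG was in 21 of 33 member promoters, or 63.6%, beside 42.8% of tested genes and 39.7% of all genes with a window. It was in 13 of the 22 members that fell and in 8 of the 11 that were not called. Among members not called, SKA2, at a log2 fold change of 0.08, had 5 copies, whereas DSN1, CENPT and MAD1L1 had none. Among members that fell, CENPF and HJURP had 4 copies each, whereas NDC80, NUF2 and BUB1B had none. The letters of the hexamer and of the box can overlap by at most 1 base. In SPC25 the 2 CCAAT boxes of the printed sequence lie upstream of TTTGAA.

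**Figure D3:**
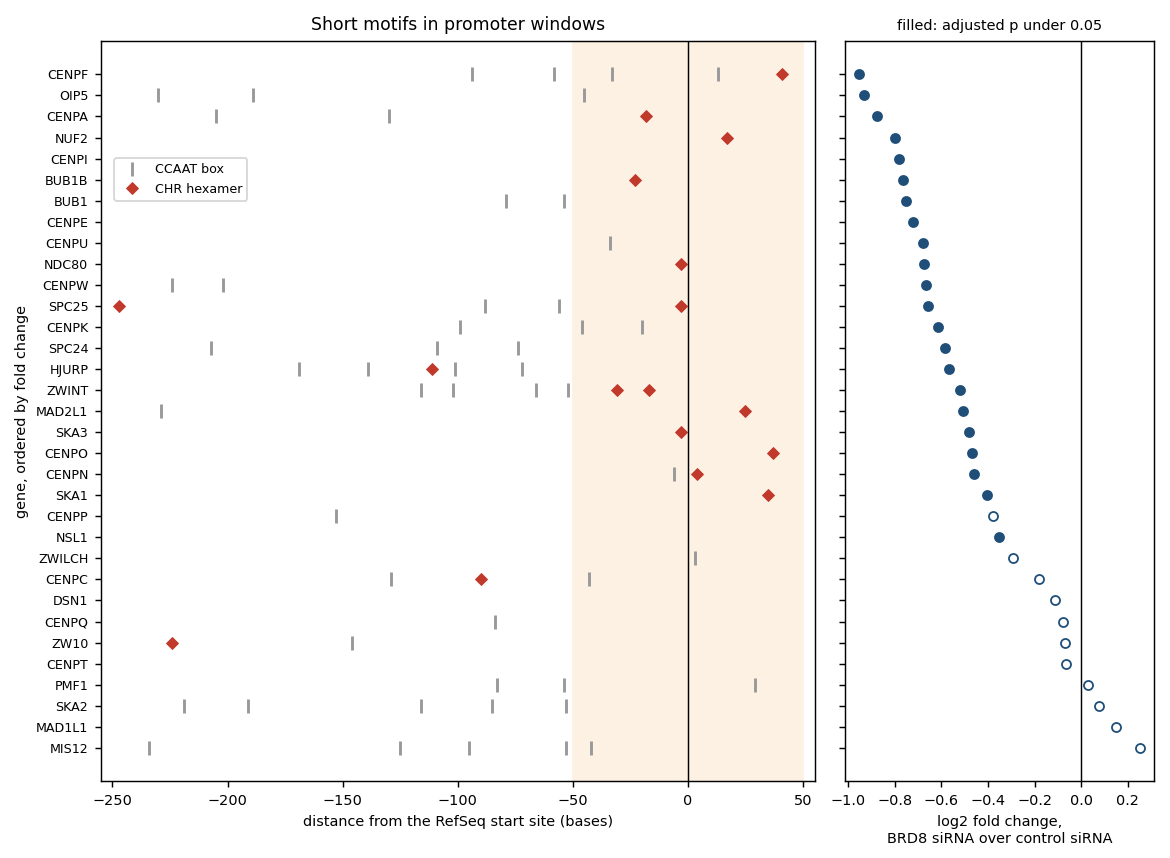
Position of the CHR hexamer (diamonds) and the CCAAT box (ticks) in bases from the RefSeq start for 33 genes ordered by log2 fold change (left), and that fold change (right; filled, adjusted p under 0.05). The shaded band covers 50 bases on each side of the start and was set after the positions had been seen. All 12 genes with a diamond inside it have filled points, while CENPC and ZW10, with a diamond farther upstream, have open ones.

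Control library 2 differed from the other controls along transcript length, and this touched several members. The log2 difference of control library 2 from the mean of control libraries 1 and 3 was -0.67 for CENPE, -0.67 for CENPI and -0.55 for CENPF. It was 0.60 for PMF1, 0.43 for CENPM and 0.33 for CENPW. Over the 40 genes, which share the libraries, this difference followed the length of the longest annotated transcript at a Spearman rho of -0.55, and over 14821 tested genes of known length at -0.53. Over the 40 genes the same difference followed GC content at a Spearman rho of 0.42, and the parts of length and GC content were not told apart. The fold change of the 40 genes followed length at a rho of 0.12. These 6 are among the extremes, and CENPT, with a transcript of 2957 bases, was at 0.33 as well. CENPP at 0.02, BUB3 at -0.05 and CENPC at -0.03 have long transcripts too, and CENPI has one of middling length. Without control library 2, 29 of the 40 fell and the median log2 fold change was -0.55, where 18.1% of all genes tested fell. With a trend on length and GC removed from every library, 28 fell with a median of -0.51, where again 18.1% of all genes tested fell. The part of RNA quality in the length pattern was not tested.

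**Figure D4:**
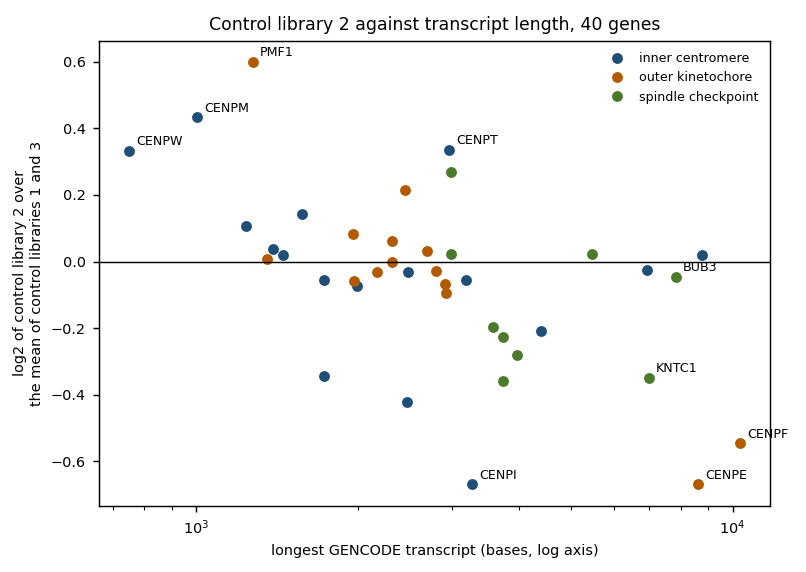
Log2 level of control library 2 over the mean of control libraries 1 and 3 (y axis) against the longest annotated transcript in bases (x axis, log scale) for the 40 genes, coloured by class. CENPE and CENPF, both long, lie near -0.6 and the short CENPM, CENPW and PMF1 above 0.3, but the long CENPP, BUB3 and CENPC and the short SPC25, CENPA and CENPH lie within 0.05 of 0. CENPT, of middling length, also lies above 0.3.

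Other genes of the same structures fell as well. Of 23 related genes that are not among the 40, 16 fell, beside 8.93% of all genes tested, and none was called higher. Their median log2 fold change was -0.59. The chromosomal passenger genes BIRC5, CDCA8, INCENP and AURKB, which correct faulty attachments, all fell, and BIRC5 went from 2358 ± 208 to 1369 ± 41.0 normalized counts (a log2 fold change of -0.78). CDC20, the target of the checkpoint, fell from 2988 ± 395 to 1701 ± 108 (log2 fold change -0.81), and TRIP13, which takes apart the MAD2 complex, by 0.69 on the log2 scale. KNL1, listed under its older symbol CASC5, binds ZWINT and the BUB proteins and fell from 376 ± 122 to 189 ± 14.8 (adjusted p = 0.0243), a call that was lost without any 1 library other than control library 2. The 7 that were not called were NDEL1 at 0.24, STRA13 (CENP-X) at 0.21, APITD1 (CENP-S) at 0.19, MAD2L1BP at 0.18, CENPB at 0.06, BOD1 at -0.02 and ITGB3BP (CENP-R) at -0.15 on the log2 scale. For NDEL1 every BRD8 siRNA library lay above every control library. Without control library 2, 3 of the 23 related genes were called higher, all of them among these 7: NDEL1 (adjusted p = 0.0483), STRA13 (0.0200) and MAD2L1BP (0.0312). In that fit more of all genes tested rose than in any other leave-out, so these 3 calls are not read as particular to the related genes. INCENP, AURKB, KNL1 and these 7 were singled out after their values had been seen. Without control library 3, 10 of the 23 fell, where 3.44% of all genes tested fell.

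Genes of G2 and mitosis outside the kinetochore moved in these libraries beside the 40. All 17 on the list fell, beside 8.93% of all genes tested, at a median of -0.73 on the log2 fold change scale. ANLN lost its call without control library 1, control library 3, BRD8 library 1 or BRD8 library 2 (limma, adjusted p from 0.0551 to 0.0779). The summed level of the 17 was 109702 to 136166 normalized counts in the control libraries and 67172 to 72169 in the BRD8 siRNA libraries. Of these sums TOP2A alone gave 50332 to 67137 in the control libraries and 28413 to 31881 in the BRD8 siRNA libraries. Cyclin B2 (CCNB2) had a log2 fold change of -0.89, NEK2 of -0.84 and TPX2 of -0.75. Of 15 G1/S genes 6 fell, beside 8.93% of all genes tested, with a median of -0.28. Their summed levels were 24139 to 26457 in the control libraries and 20816 to 21806 in the BRD8 siRNA libraries. All 15 fold changes were negative. In 11 of the 15 every BRD8 siRNA library lay below every control library, which held for 17.9% of all genes tested. The number that fell was 2 without control library 3 or BRD8 library 2, 3 without BRD8 library 3 and 4 without control library 1. In these fits 3.44% to 5.24% of all genes tested fell. The part that a changed share of cells in G2 and mitosis had in the fall of the 40 genes was not tested.

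**Figure D5:**
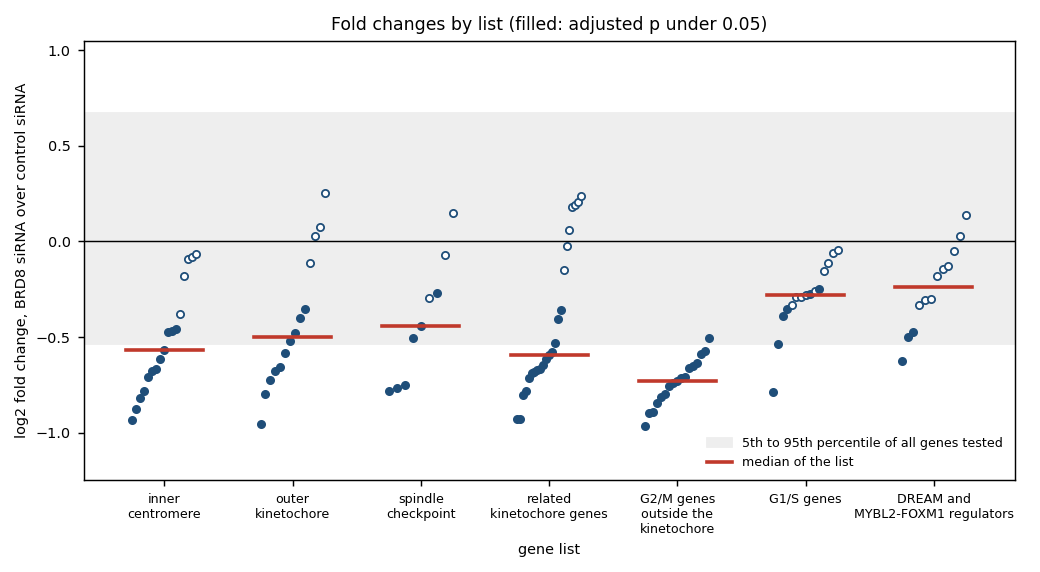
Log2 fold change (y axis) of each gene in 7 lists (x axis); filled points have an adjusted p under 0.05, red bars are list medians and the grey band spans the 5th to 95th percentile of all 15354 genes tested, from -0.54 to 0.67. All 17 G2/M genes are filled, while each kinetochore class holds both filled points, all below -0.25, and open points between -0.38 and 0.25.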

How the data were processed

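RNA-seq libraries of 6 Calu3 samples were grouped by their titles, 3 given the negative control siRNA and 3 given siRNA against BRD8. Per the labels' protocols they were made with the TruSeq RNA v2 kit, and such libraries keep no strand. Alignment and counting involved STAR 2.6, featureCounts 1.6.3, DESeq2 1.22.1 and the build hg19, per the submitters' processing notes. The sources used here give no annotation version. The deposited signal is a normalized count: the authors scaled the reads of each gene by 1 size factor in each library. Whole reads were recovered from them, with 100% of values whole within 0.01, and gave 33640814 to 37896467 reads per library. The log2 fold changes and adjusted p-values of the authors' comparison were deposited in the same table. Reads carry no molecular identifiers, so depth bears on counting error only.

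The main test was limma 3.58.1 in R 4.3.3, fitted to log2(normalized count + 1) with a trended variance. It covered the 15354 genes whose mean reached 10, with Benjamini-Hochberg adjustment over all of them and a threshold of 0.05. Intervals of fold changes are at 95%. On simulated data made from the 6 libraries, with 15354 genes, it found 74% of the genes given a 1.5-fold change and 91% of the genes given a 2-fold change. The simulated counts held no length pattern like that of control library 2, so these rates need not hold for the real libraries. Alternatives were edgeR 4.0.16 and DESeq2 1.42.0 on the recovered reads, TMM and quantile normalization, pseudocounts of 0.5 and 10, a minimum mean of 50 or no filter, removal of a spline trend on length and GC content from each library, a block for the replicate number, and leaving out each library.

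The 40 members, their classes and the other lists were chosen with earlier results of these data known. Named with values in every library were, per class, the 4 genes with the smallest adjusted p, every gene not called, the extremes of fold change and up to 6 genes whose call was lost on leaving out 1 library. Other lists were to give up to 4 genes with the smallest adjusted p. Lengths, GC content and exon overlaps came from GENCODE release 29, matched by symbol, with 1891 of 26364 symbols not matched. Exon bases are shared with other genes by 16 of the 40, for 13 with a gene of the other strand. Promoter windows came from RefSeq (GRCh38.p14) and were matched by symbol for 33 members. The value of 1 leukocyte marker is not reported here.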

Additional observations from a re-analysis of the deposited data

How the results depend on the processing

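Of the 28 genes that fell, 19 kept their call on leaving out any 1 library and 9 lost it in at least 1 case. The number of the 40 that fell ranged from 19 to 29 over the 6 leave-outs (19 without control library 3), with 9 to 12 in the inner centromere, 6 to 10 in the outer kinetochore and 4 to 7 in the checkpoint. Over the same leave-outs the related kinetochore genes that fell ranged from 10 to 16, all genes that fell from 528 to 2784 (main value 1371) and all genes that rose from 832 to 2445 (main value 1549). The extremes of both came without control library 3 and without control library 2. Every leave-out also has fewer samples, and the cause of these extremes was not tested. With a trend on length and GC removed, 2687 genes fell, and with the replicate block added 2897 fell and 2368 rose. One of the 40 genes, MIS12, was called higher with quantile normalization, with that trend removed, with the trend removed and the block added, and without control library 2, so this count ranged from 0 to 1 over the leave-outs. The fold change of PMF1, 0.03 in the main test, was -0.0077 with quantile normalization, -0.072 with the trend removed and -0.072 with trend removal and block, and ranged from -0.081 to 0.23 over the leave-outs. That of CENPQ ranged from -0.15 to 0.0062 and that of CENPT from -0.18 to 0.047. The cause of these changes of sign was not tested.

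With a replicate block 29 of the 40 fell, ZWILCH being added (adjusted p = 0.0274, limma), and 1962 of all genes fell and 1939 rose. Same-numbered libraries deviated from their group means with correlations of -0.08, 0.34 and 0.15, and not every library correlated best with its own number, so the numbers were not taken to pair the samples. TMM, edgeR, both other pseudocounts and the stricter filter gave 28 lower genes among the 40, DESeq2 29 and no filter 27. Of all genes, 8.40% fell with TMM, 8.66% with edgeR, 8.92% and 8.93% with pseudocounts of 0.5 and 10, and 10.4% with the stricter filter. That share was 10.5% with DESeq2 and 5.55% with no filter.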

Other observations

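Genes for the factors known to bind the 2 promoter motifs were read as well. Of 12 genes of the DREAM complex and of MYBL2 and FOXM1, 3 fell and none rose (limma, adjusted p under 0.05). Of all genes tested 8.93% fell and 10.1% rose. The median log2 fold change of the 12 was -0.24. FOXM1, a transcription factor of late cell cycle genes, gave 1136, 1241 and 1371 normalized counts in the control libraries and 952, 719.7 and 768 in the BRD8 siRNA libraries (log2 fold change -0.63, adjusted p = 0.00832). Its groups did not overlap. LIN9, a subunit of the MuvB core shared by the DREAM and MYBL2 complexes, had a log2 fold change of -0.50 (adjusted p = 0.0199), and RBL1, the pocket protein p107, of -0.47 (adjusted p = 0.0401). Both calls were lost on leaving out any library except control library 2, at adjusted p from 0.0543 to 0.0946 for LIN9 and from 0.0559 to 0.149 for RBL1, while FOXM1 kept its call in all 6 cases. The number of the 12 that fell was 1 or 2 in those 5 cases and 6 without control library 2. Of all genes tested, 3.44% to 5.46% fell in those 5 cases and 18.1% without control library 2. LIN54 was at -0.33 (adjusted p = 0.193), with overlapping groups, and passed as lower only without control library 2 (0.00360). MYBL2 itself was at -0.30 (adjusted p = 0.134), with overlapping groups. Of the 3 NF-Y subunit genes, whose product binds the CCAAT box, none was called, and their log2 fold changes lay between -0.01 and 0.03.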
